A study of Solanum lycopersicum with 8 samples.

Results

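In the tomato shoot apical meristem, 5 genes had lower normalized read counts in wild-type (WT) plants with 6 leaves than in every other library of the series. The genes were chosen by their measured values. In each of them the lowest of the 6 libraries outside WT 6 leaves had a normalized read count of at least 20, and this was at least 1.5 times the higher of the WT 6 leaves libraries. Of 34722 genes in the table, 16731 had at least 20 in all 6 of those libraries, and 5 of these met the ratio. TKN1 (Solyc04g077210) was to be left out of the group and did not meet the ratio in any case.

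The series holds 8 RNA-seq libraries, 2 per group, labelled A and B. The groups are WT at 6 leaves, the late termination (ltm) mutant at 6 leaves, ltm at 4 leaves and WT at 4 leaves. All were grown as greenhouse seedlings, and the meristems were dissected after fixation in acetone. The design text calls the WT stages vegetative and floral transition. The labels give neither the mutated locus, nor the number of meristems behind a library, nor whether A and B were separate pools of plants. A limma p-value here thus reflects how far the 2 libraries of a group differ, pooled over the groups and drawn toward the spread of other genes. That spread can be technical.

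The shoot apical meristem is the small dome of dividing cells from which leaves, and later flowers, are formed. In tomato it makes leaves for a time, then ends in an inflorescence. During this transition genes of flower formation are switched on, and genes that keep the meristem vegetative or hold back flowering are lowered. The rule picks out genes lower in WT at 6 leaves than in every other library, and it sets no direction on the change from 4 to 6 leaves within ltm.

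Between 17895357 and 21987881 reads per library were assigned to genes. The meristem list was detected in every library. TKN2, a KNOX homeobox gene of meristem cells, lay between 4388 and 6828. WUS, which keeps the stem cells, lay between 152 and 246, and CLV3, the stem cell peptide that limits WUS, between 85.6 and 331. LS, a GRAS gene of axillary meristems, lay between 287 and 568. Of 16 green leaf genes listed by identifier, 1 was at 0 in all libraries, and their summed count was 41075 in ltm 4 leaves B against 20785 to 32281 in the other 7. In bulk tissue, fewer cells of one type and less RNA per cell cannot be told apart.

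The 5 genes are given by their identifiers, which the tables used here pair with no name or function. They are Solyc03g078330, Solyc05g007300, Solyc09g075670, Solyc02g093960 and Solyc03g113350, in the order of their ratios. The identifiers place them on chromosomes 3, 5, 9, 2 and 3, and no 2 of them are neighbours. Of the 20 genes within 2 places of a member in the table, 13 passed the filter on low values (at least 10 in at least 2 libraries). None of the 20 met the rule. In the 13, WT 6 leaves differed from the mean of the other 6 libraries by -0.47 to 0.20 on the log2(value + 1) scale. Among them, only the genes on either side of Solyc09g075670 were lower in both WT 6 leaves libraries than in all other 6. Solyc09g075660 had 12.9 and 10.2 in WT 6 leaves A and B, against 14.0 to 19.2. Solyc09g075680 had 39.8 and 35.1, against 40.6 to 68.5. Of all tested genes 5.99% lay lower in this way.

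**Figure D1:**
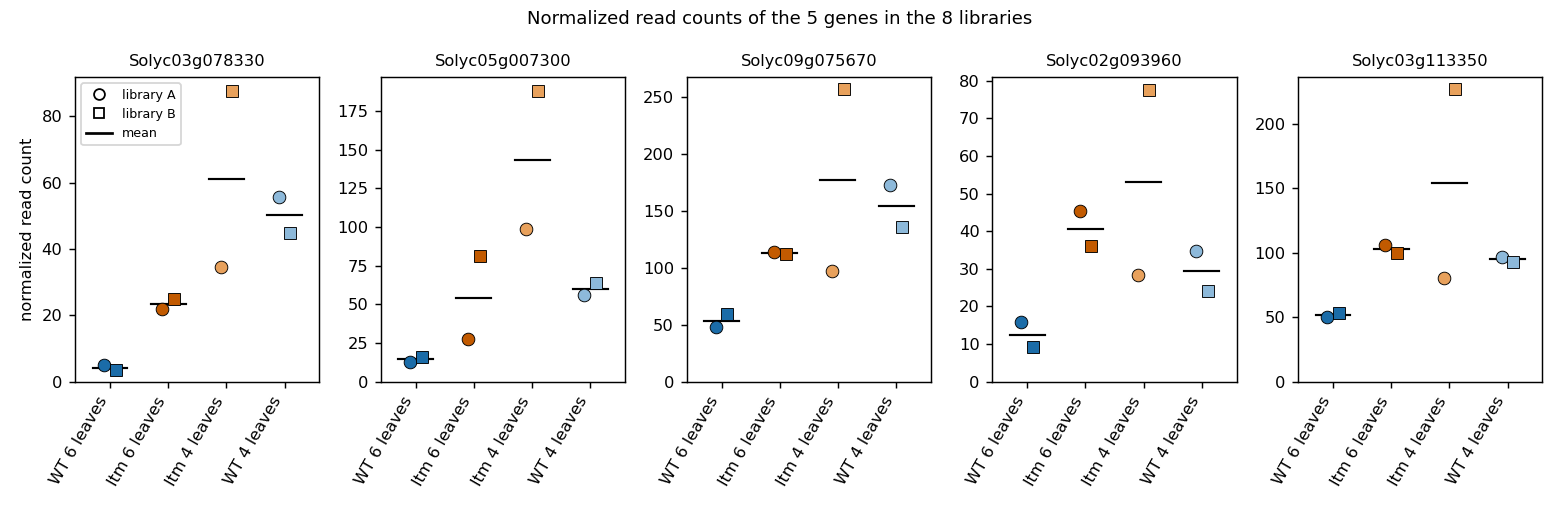
Normalized read count of each of the 5 genes (y axis, linear from 0) in the 4 groups (x axis). Circles are A libraries, squares are B libraries and bars are means of 2 libraries. The WT 6 leaves libraries lie lowest in each panel, which the rule required, and ltm 4 leaves B lies highest in all 5.

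Solyc03g078330 had the widest gap. Its normalized read count was 4.98 and 3.40 in WT 6 leaves A and B, 21.8 and 24.99 in ltm 6 leaves, 34.5 and 87.6 in ltm 4 leaves, and 55.7 and 44.9 in WT 4 leaves. Both WT 6 leaves values lay far under all others, and WT 4 leaves lay above ltm 6 leaves without overlap. The group means were 4.19 ± 1.12 in WT 6 leaves, 23.4 ± 2.28 in ltm 6 leaves, 61.1 ± 37.5 in ltm 4 leaves and 50.3 ± 7.67 in WT 4 leaves (SD, n = 2 each). The ratio of the lowest other library to the higher WT 6 leaves library was 4.37. It rested on 23 reads in ltm 6 leaves A and 5 in WT 6 leaves A, with a 95% counting interval of 1.63 to 14.7 (exact, Clopper-Pearson). The rule compared these same 2 libraries, so neither this interval nor those of the other members test the gap. In the whole group the WT 6 leaves libraries held 8 reads.

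Solyc05g007300 was the second by ratio, at 1.73. It had 12.9 and 15.9 in WT 6 leaves A and B, 27.4 and 81.0 in ltm 6 leaves, 98.5 and 188.3 in ltm 4 leaves, and 55.7 and 63.7 in WT 4 leaves. Here ltm 4 leaves lay above WT 4 leaves in both libraries, and the ltm 6 leaves libraries were 2.95-fold apart and spanned WT 4 leaves. The means were 14.4 ± 2.06 in WT 6 leaves, 54.2 ± 37.9 in ltm 6 leaves, 143 ± 63.5 in ltm 4 leaves and 59.7 ± 5.62 in WT 4 leaves (SD, n = 2 each). The counting interval of its ratio was 0.886 to 3.54, so in this closest pair of libraries counting error alone spans a ratio of 1. That pair held 29 reads in ltm 6 leaves A and 14 in WT 6 leaves B. All reads of the gene were 27 in WT 6 leaves and 516 in the other 6 libraries, which the rule also used.

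Solyc09g075670 had 47.8 and 58.9 in WT 6 leaves A and B, 114 and 112 in ltm 6 leaves, 97.5 and 257 in ltm 4 leaves, and 173 and 136 in WT 4 leaves. Its ratio of 1.65 was set by ltm 4 leaves A, the lowest library outside WT 6 leaves. WT 4 leaves lay above ltm 6 leaves without overlap, and the ltm 4 leaves libraries lay on either side of both groups. The means were 53.3 ± 7.85 in WT 6 leaves, 113 ± 1.13 in ltm 6 leaves, 177 ± 113 in ltm 4 leaves and 154 ± 26.2 in WT 4 leaves (SD, n = 2 each). The counting interval of the ratio was 1.17 to 2.37.

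The remaining 2 genes stood just inside the threshold, each with a ratio of 1.51. Solyc02g093960 had 15.9 and 9.06 in WT 6 leaves A and B, 45.4 and 36.0 in ltm 6 leaves, 28.4 and 77.5 in ltm 4 leaves, and 34.7 and 24.0 in WT 4 leaves. Solyc03g113350 had 49.8 and 53.2 in WT 6 leaves A and B, 106 and 99.97 in ltm 6 leaves, 80.2 and 228 in ltm 4 leaves, and 96.9 and 92.9 in WT 4 leaves. In both genes ltm 6 leaves lay a little above WT 4 leaves without overlap, the opposite order from Solyc03g078330 and Solyc09g075670. In Solyc02g093960 the nearest libraries held 36 reads (ltm 6 leaves B) and 38 reads (WT 4 leaves A). Such an order between 2 groups of 2 libraries was not counted over all genes, so nothing is read from it in any member. The counting intervals of the 2 ratios, each for the closest pair of libraries, were 0.762 to 3.05 and 1.04 to 2.21. All reads of Solyc02g093960 were 24 in WT 6 leaves and 250 in the other 6 libraries.

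The contrasts that involve WT 6 leaves chose the genes, so their fitted changes are given as a description with no test. On the log2(value + 1) scale, WT 6 leaves against WT 4 leaves stood at -3.32 ± 0.48 (SE) in Solyc03g078330, -1.98 ± 0.51 in Solyc05g007300 and -1.51 ± 0.40 in Solyc09g075670. It stood at -1.20 ± 0.52 in Solyc02g093960 and -0.87 ± 0.42 in Solyc03g113350. At 6 leaves, ltm against WT stood at 2.25 ± 0.48, 1.66 ± 0.51, 1.07 ± 0.40, 1.67 ± 0.52 and 0.99 ± 0.42 in the same order of genes. Both contrasts share the WT 6 leaves libraries.

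The ratio was set beside that of all genes. Of 19186 genes that passed the filter on low values, 1149 lay lower in both WT 6 leaves libraries than in all other 6 at any ratio, which is 5.99%. Another 1261 lay higher, which is 6.57%. All 5 members passed the filter and lie lower by the rule, so nothing is read from that count. With a minimum of 20, 42 genes reached a ratio of 1.2, 20 reached 1.3, 8 reached 1.4, 5 reached 1.5 and 1 reached 2. All 5 members had a mean count under the median of the tested genes, which was 409, and the precision of a ratio is lower at low counts.

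**Figure D2:**
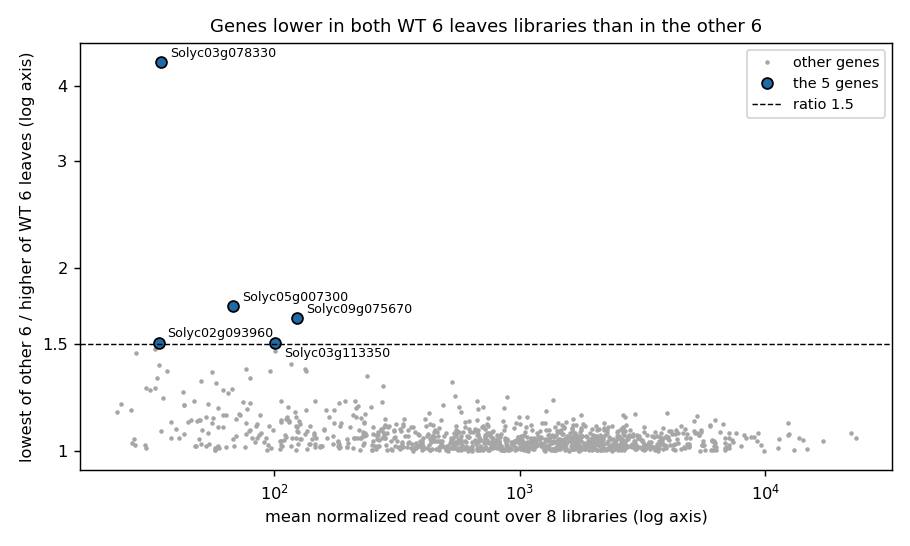
Ratio of the lowest of the 6 other libraries to the higher of the WT 6 leaves libraries (y axis, log scale) against the mean normalized read count over 8 libraries (x axis, log scale), for genes with at least 20 in those 6 libraries and a ratio of at least 1. Blue points are the 5 genes and grey points all other genes. Solyc03g078330 stands alone at 4.37, and the remaining members lie between 1.51 and 1.73 among genes of low count.

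The genes just outside the threshold were Solyc04g051150 at a ratio of 1.47, Solyc01g106230 at 1.46 and Solyc04g056260 at 1.45. Solyc01g106230 had 60.7 and 52.1 in WT 6 leaves A and B, 117 and 136 in ltm 6 leaves, 111 and 140.0 in ltm 4 leaves, and 104 and 88.7 in WT 4 leaves. The same rule applied to the other groups found 5 genes lowered in ltm 6 leaves alone, 2 in ltm 4 leaves alone and 1 in WT 4 leaves alone. The mirrored rule found 18 genes raised in WT 6 leaves alone and 2 in each of the other 3 groups. Without WT 6 leaves A the rule took in 120 genes, and without WT 6 leaves B 28. It took in 8 without WT 4 leaves A, 10 without WT 4 leaves B and 9 without ltm 6 leaves B. Leaving out a library can only loosen the rule, so the members stay in by construction and these counts say nothing about their stability.

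The comparisons within ltm and between the genotypes at 4 leaves do not compare WT 6 leaves, and the rule sets no direction within them. It does set a minimum on each library compared. The spread is estimated over all 8 libraries, so WT 6 leaves enters the standard errors. The p-values of the members are thus not independent of how the genes were chosen. In ltm 4 leaves against WT 4 leaves, none of the 5 genes passed in limma after Benjamini-Hochberg adjustment over all 19186 genes, where 1 gene (0.00521%) was called. Of the same genes edgeR called 1 (0.00521%) and DESeq2 called 19 (0.099%), none of them a member. At an unadjusted p under 0.05 in limma there were 558 genes, 1 of them a member. That member was Solyc05g007300, with a log2 fold change of 1.18 ± 0.51 (SE; limma adjusted p = 0.9999). The other members stood at 0.69 ± 0.52 (Solyc02g093960), 0.51 ± 0.42 (Solyc03g113350), 0.14 ± 0.48 (Solyc03g078330) and 0.05 ± 0.40 (Solyc09g075670). The median over the 5 was 0.51, beside -0.0020 over all tested genes.

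That median rested on 1 library. Without ltm 4 leaves B it was -0.24, and without ltm 4 leaves A it was 1.25. Without ltm 4 leaves B, 4 of the 5 fold changes were below 0, the lowest being -0.65 ± 0.27 in Solyc09g075670, and Solyc05g007300 stood at 0.72 ± 0.58. In that fit the spread of the lone ltm 4 leaves library is assumed to be that of the other groups.

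In ltm 6 leaves against ltm 4 leaves, 0 of the 5 genes passed in limma. Of the 19186 tested genes limma and edgeR called 0 (0%), and DESeq2 called 4 (0.021%), none of them a member. In limma 612 genes had an unadjusted p under 0.05, and Solyc05g007300 and Solyc03g078330 were among them. Solyc05g007300 stood at -1.51 ± 0.51 (limma adjusted p = 0.9998) and Solyc03g078330 at -1.21 ± 0.48 (limma adjusted p = 0.9998). The ltm 6 leaves libraries of Solyc05g007300 lay far apart, and leaving out A gave a fold change of -0.74 and leaving out B one of -2.27. Solyc09g075670, Solyc03g113350 and Solyc02g093960 stood at -0.49 ± 0.40, -0.39 ± 0.42 and -0.21 ± 0.52. The median over the 5 was -0.49, beside 0.00049 over all tested genes, and both comparisons share the ltm 4 leaves libraries. Without ltm 4 leaves B the median was 0.21, and without ltm 4 leaves A it was -1.18. Solyc05g007300 at -1.04 ± 0.58 and Solyc03g078330 at -0.55 ± 0.48 then stayed below 0, while the other three lay above it.

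**Figure D3:**
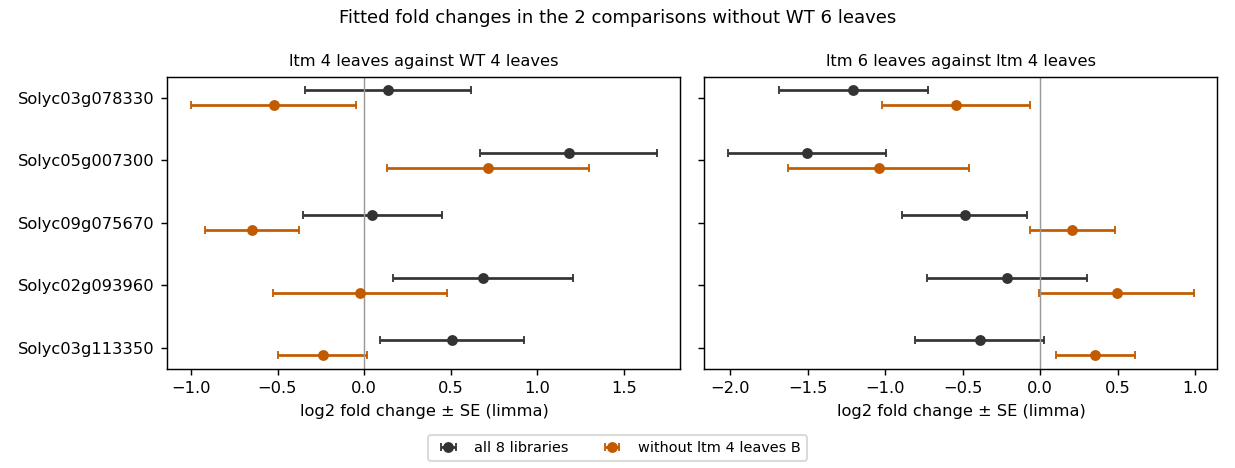
Fitted log2 fold change with its standard error (x axis, limma) of each of the 5 genes (y axis) in ltm 4 leaves against WT 4 leaves (left) and ltm 6 leaves against ltm 4 leaves (right). Black points use all 8 libraries and orange points leave out ltm 4 leaves B. Without that library 4 of 5 genes lie below 0 on the left and 3 of 5 lie above 0 on the right. Leaving out ltm 4 leaves A instead, which is not drawn, moves each point equally far the other way.

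Of the ltm 4 leaves libraries, B held the highest value of all 8 libraries in each of the 5 genes. Over the 19186 tested genes it was the highest in 15.8%. That share is not a like one, since the rule keeps a member from being highest in WT 6 leaves. Among the 15 further genes with a ratio of at least 1.3 and under 1.5, ltm 4 leaves B was the highest in 6. In ltm 4 leaves the B value was 1.91-fold (Solyc05g007300) to 2.84-fold (Solyc03g113350) the A value. In WT 4 leaves it was 0.692-fold (Solyc02g093960) to 1.14-fold (Solyc05g007300), and below 1 in 4 of the 5 genes. On the log2(value + 1) scale the median B minus A difference of the members was 1.39 in ltm 4 leaves and -0.31 in WT 4 leaves. It was -0.02 in ltm 6 leaves and 0.09 in WT 6 leaves.

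Marker lists moved between the same libraries. At 4 leaves the summed count of the 16 green leaf genes was 41075 in B and 21527 in A of ltm, and 32281 in B and 26826 in A of WT. The 6 heat-shock genes listed by identifier summed to 3561 in B and 1956 in A of ltm, and to 3681 in B and 1889 in A of WT. Most of the difference in these sums lay in Solyc03g115230, with 2526 and 1153 in B and A of ltm, and 2586 and 885 in WT. Solyc06g076570 had 727 and 691 in B and A of ltm, and 790 and 849 in WT. The median B minus A difference in ltm and WT was 1.03 and 0.52 for the green leaf list, 1.13 and 0.97 for the heat-shock list, and -0.33 and -0.48 for the meristem list. In ltm the members and both lists were higher in B, and in WT both lists were higher in B while 4 of the 5 members were lower. The part of leaf tissue or handling in the members' values was not tested. At 6 leaves the green leaf sum was 20785 and 20837 in ltm A and B, against 23704 and 22289 in WT A and B.

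**Figure D4:**
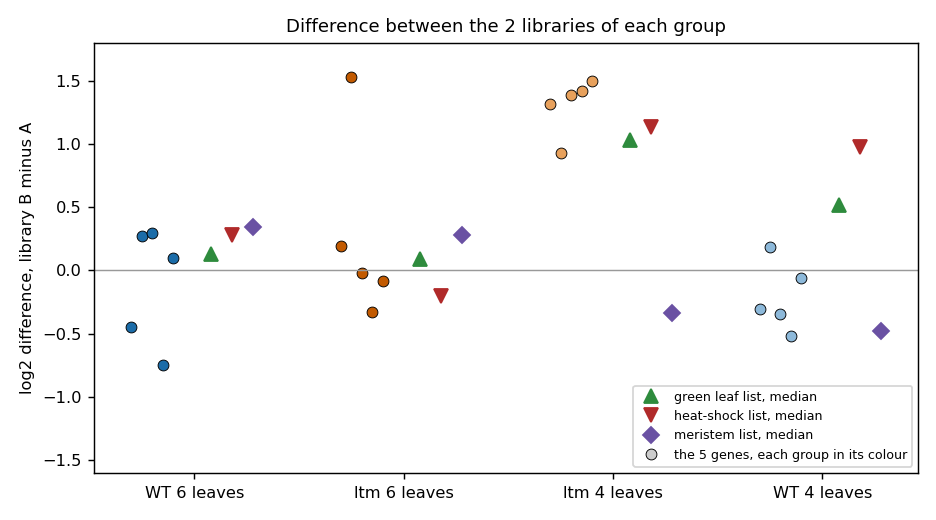
Difference between library B and library A on the log2(value + 1) scale (y axis) in each group (x axis). Circles are the 5 genes, and triangles and diamonds are medians of the green leaf, heat-shock and meristem lists. All 5 genes lie between 0.93 and 1.49 in ltm 4 leaves, and the single circle near 1.5 in ltm 6 leaves is Solyc05g007300.

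Genes known to hold back or promote flowering were looked at in the same way. None of 11 listed floral repressors met the rule. Of the 10 that passed the filter, 0 were lower in both WT 6 leaves libraries than in all other 6, beside 5.99% of all tested genes. BOP1, a BLADE-ON-PETIOLE co-regulator, was higher there, with 523 and 574 in WT 6 leaves A and B against 276 to 450 in the other 6. BOP2 and BOP3 of the same family overlapped between the groups. SP, a flowering repressor related to florigen, had 7.97 and 0 in WT 6 leaves, 10.4 and 4.998 in ltm 6 leaves, 21.3 and 39.3 in ltm 4 leaves, and 0.914 and 0 in WT 4 leaves. SP thus shared with the members a high value in ltm 4 leaves B but was already low in WT 4 leaves.

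Of the 10 listed floral promoters 7 passed the filter, and 6 of these were higher in both WT 6 leaves libraries than in all others, beside 6.57% of tested genes. FUL1, a MADS-box gene of the flowering meristem, had 134 and 142 in WT 6 leaves against 35.6 to 68.1 in the other 6. None of the 3 class I KNOX genes, which maintain meristem cells, met the rule. TKN1 had 2424 to 3320 in ltm over both stages, against 1580 and 1532 in WT 6 leaves and 1583 and 1299 in WT 4 leaves. Its low value was thus shared by both WT stages, unlike that of the 5 genes. No gene of these 3 lists passed in limma in either of the comparisons without WT 6 leaves. In ltm 4 leaves against WT 4 leaves, 558 of 19186 tested genes had an unadjusted limma p under 0.05. Among them were 3 of 10 repressors, 2 of 7 promoters and 1 of 3 KNOX genes. The median log2 fold changes of these lists were 0.07, -0.33 and 0.18. In ltm 6 leaves against ltm 4 leaves there were 612 such genes, with 1, 3 and 0 from the lists, whose medians were 0.15, 0.38 and 0.31. Nothing is read from these counts. Earlier results of these data were known when the lists were compiled.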

How the data were processed

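The deposited table gives 1 signal value per gene and library. The tools were HTSeq 0.6.1p1, DESeq2 1.6.3 and TopHat2 2.0.10, per the submitters' processing notes, and a genome build was not given in the sources used. In each library 100% of values were whole multiples of the value of 1 read, within 1e-06 of the multiple, so the deposited signal is gene counts divided by a size factor per library, and the whole reads were recovered. Exact binomial intervals from them cover counting error only, and not the choice of genes and libraries by the rule. Columns were matched to libraries through the sample descriptions.

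The members, gene lists and comparisons were chosen with earlier results of these data known. limma 3.58.1 (R 4.3.3, trend) was fitted across all genes to log2(value + 1) with a mean per group over 8 libraries, on genes with at least 10 in at least 2 libraries; p-values were adjusted by Benjamini-Hochberg and called under 0.05. The pseudocount of 1 understates the fold changes of low genes. edgeR 4.0.16 and DESeq2 1.42.0 on the recovered reads were alternatives. The limma code was tested on simulated counts for ltm 4 leaves against WT 4 leaves only. The simulated libraries were drawn independently, so the test says nothing about how the libraries here differ. With at most 30 members, all were named. List genes were named where they illustrate a count, chosen after their values were seen. Names were matched to RefSeq symbols (SLM_r2.1) on the chromosome of the identifier, for 9 of 11 repressors, 8 of 10 promoters, 3 of 3 KNOX genes and 4 of 4 meristem genes. The green leaf and heat-shock lists rest on identifiers alone. A planned search for promoter motifs was not run. Of the epidermis list, both genes passed the filter and neither met the rule.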

Additional observations from a re-analysis of the deposited data

How the results depend on the processing

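The number of genes that met the rule was 20 at a ratio of 1.3, 1 at a ratio of 2, 10 with a minimum of 10, 2 with a minimum of 50 and 322 for a ratio of group means, and 5 to 120 when each library was left out in turn, where the rule only loosens and the count cannot fall under 5. With TMM or with scaling by library totals it was 4, without Solyc02g093960. In ltm 4 leaves against WT 4 leaves, DESeq2 called 19 genes, and the fit of the 2 groups alone 0; in ltm 6 leaves against ltm 4 leaves DESeq2 called 4. No alternative called a member, and with a filter of at least 50 Solyc02g093960 was not tested. Over the libraries left out, the median of the members ran from -0.24 to 1.25 in the first comparison and from -1.18 to 0.21 in the second. Without both 4 leaves B libraries, which leaves 1 library per genotype at 4 leaves, it was -0.28 and 0.21.

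Fold changes turned sign only when a 4 leaves B library was left out. In ltm 4 leaves against WT 4 leaves, the range over libraries left out was -0.52 to 0.80 in Solyc03g078330, -0.65 to 0.74 in Solyc09g075670, -0.023 to 1.39 in Solyc02g093960 and -0.24 to 1.25 in Solyc03g113350. Without both 4 leaves B libraries these stood at -0.68, -0.82, -0.28 and -0.27. In ltm 6 leaves against ltm 4 leaves, the ranges were -2.27 to -0.74 in Solyc05g007300, -1.86 to -0.55 in Solyc03g078330, -1.18 to 0.21 in Solyc09g075670, -0.92 to 0.49 in Solyc02g093960 and -1.14 to 0.36 in Solyc03g113350, and without both B libraries those of Solyc09g075670, Solyc02g093960 and Solyc03g113350 were 0.21, 0.49 and 0.36. The cause was not tested. With the replicate letter as a replicate block, limma called 1 and 0 genes, as without it. Genes with an unadjusted limma p under 0.05 rose from 558 to 915 and from 612 to 1042. The SE of Solyc05g007300 fell from 0.51 to 0.37, with limma adjusted p of 0.98 and 0.88, and that of Solyc02g093960 rose from 0.52 to 0.53. The letters' deviations correlated at 0.13 to 0.52 across genes between groups, with 2 letters per group. Depth limits the members: 3 to 52 reads per gene and library in WT 6 leaves.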

Other observations

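A further 15 genes had a ratio of at least 1.3 and under 1.5. The highest library was ltm 4 leaves B in 6 of these 15, ltm 6 leaves A in 4, ltm 6 leaves B in 2, WT 4 leaves B in 2 and WT 4 leaves A in the last. In all 5 members it was ltm 4 leaves B. One of the 6 was Solyc12g010170, named after its values were seen. It had 44.8 and 21.5 in WT 6 leaves A and B, 93.7 and 59.0 in ltm 6 leaves, 66.0 and 162 in ltm 4 leaves, and 102 and 87.7 in WT 4 leaves. No test is given for it.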
